A study of Homo sapiens with 30 samples.

Results

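The 35 genes described here carry glucose into the cell, break it down to pyruvate and lactate, or belong to the set that cells switch on when oxygen is low. They were listed by name for what the genes are known to do, with earlier results of these data known, and make up 35 of the 61471 gene symbols in each of the expression tables. RNA was sequenced from the human glioblastoma lines U87 (U87-MG) and U251 (U251-MG), both labelled wild type, to ask how tumor cells adapt when interferon-γ (IFN-γ), the cytokine made by activated T and NK cells, stays in the medium for weeks. In each line the groups were Untreated cells, cells after 3 (D3), 14 (D14) and 28 (D28) days of IFN-γ, and cells from which IFN-γ was withdrawn at day 14 for another 14 days (D28WO). There are 30 samples in the labels and 28 libraries in the comparisons, with 2 libraries at D3 and 2 at D14 in U87 and 3 in every other group. The replicates were separate cultures according to the methods, which also have the cultures split at day 14 into D28 and D28WO.

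All cultures were kept in DMEM with fetal bovine serum, and no label names a low-oxygen treatment. The sources differ on the dose, which is 1 μg/mL in the labels' protocol and 10 ng/mL in the methods, and on the Untreated cells, which are labelled day 3 but were collected before treatment according to the methods. No Untreated cultures of day 14 or day 28 were used here, so the time in culture and the time with IFN-γ cannot be told apart. The identity of the cells was not tested in the study, and mix-ups are known for each line. In cultures of cells, fewer cells with a transcript and less of it per cell cannot be told apart.

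Glycolysis splits 1 glucose into pyruvate, and cells that lack oxygen, or tumor cells even with oxygen, reduce much of that pyruvate to lactate and export it. The transcription factors HIF-1 and HIF-2, each an oxygen-labile α subunit (HIF1A, EPAS1) paired with the stable ARNT, bind the short DNA core ACGTG or GCGTG. Between them, and not each alike, they raise transcripts of glucose transporters, of nearly every glycolytic enzyme, of pyruvate dehydrogenase kinases, of carbonic anhydrases and of VEGFA. In glioblastoma these genes are known from the hypoxic rim around necrosis. Levels are given as TPM, a share of all transcripts of a library that is corrected for transcript length. How the values were computed is not given, and a supplementary sheet calls them CPM, a measure without that correction. Comparisons of genes within a library, such as rankings and the share of a gene in a pair, rest on the values being TPM. A fold change is a difference of log2(TPM + 1), with its standard error (SE) from limma. A gene was called when the Benjamini-Hochberg adjusted p, taken over all genes tested in a comparison, was under 0.05. All 35 genes passed the filter of a mean of at least 0.5 TPM in both lines, among 22918 genes tested in U87 and 23667 in U251.

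The libraries were first checked against their labels with 17 genes that IFN-γ is known to induce, among them IRF1, GBP1 and CXCL10. In U87 Untreated cells their summed level was 585 ± 48.5 TPM (mean ± SD over libraries). It was 1969 ± 29.6 at D3 and 622 ± 36.9 at D14, and stood at 2180 ± 63.2 TPM at D28 and 2245 ± 67.8 at D28WO. The libraries labelled D14, with IFN-γ present, thus lay near the Untreated level, and those labelled D28WO, with IFN-γ withdrawn, lay at the D28 level. In U251 the sums were 703, 4335, 1551, 5037 and 4221 TPM in the same order. All 16 tested genes of the list were higher at D28WO than in Untreated U251. Against D28, however, 5 of them were lower at D28WO in that line and 4 higher, and the chemokine genes CXCL9, CXCL10 and CXCL11 were lower past 2-fold, with log2 fold changes of -3.46, -2.49 and -3.79. The sums go against the labels of D14 and D28WO in U87, and in U251 the sum at D28WO lay far above Untreated while these chemokines ran the way of the label. Directions at these points are therefore given for the libraries labelled so. In the same order the sum of 15 proliferation genes was 2401, 2004, 2267, 2006 and 1437 TPM in U87 and 1615, 1510, 2224, 1613 and 1071 TPM in U251. The part of either sum in the changes below was not tested.

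Within groups the correlation between libraries ran from 0.960 to 0.974 in U87 and from 0.959 to 0.974 in U251, and no pair of libraries was identical. The methods set a floor on the number of reads, but the depth that each library reached cannot be read from TPM. Genes listed above 0 ran from 24223 to 30246 per library, and the 100 highest genes held 5.68% to 7.76% of the total. Untreated libraries of U87 had the fewest genes above 0 in that line, 24693 on average against 27910 at D3, 27228 at D28 and 28190 at D28WO, and the 100 highest genes held 7.41% there against 6.32%, 6.60% and 6.13%. In U251 the averages were 25803 in Untreated, 29651 at D28 and 26021 at D28WO, and the share of the 100 highest genes was 6.85%, 6.08% and 6.57% in that order. The part of these in the results below was not tested. The lines did not carry all markers of their tissue, since SOX2 lay below 0.5 TPM in U87, where GFAP was also low, while U251 held both, and VIM and CD44 were high in both lines. Of 8 leukocyte markers, 7 in U87 and 4 in U251 had a mean below 0.5 TPM, and their sum ran from 12.6 to 61.4 TPM in U87, nearly all of it CSF1R, and from 2.71 to 11.1 TPM in U251.

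In Untreated cells the mean level of the members ran from 20.3 to 1499 TPM in U87 and from 2.75 to 1274 TPM in U251. In U87 the highest was GAPDH, the enzyme that oxidizes glyceraldehyde 3-phosphate, at 1499 ± 187 TPM (SD, n = 3), followed by LDHA, the lactate dehydrogenase subunit that favors lactate, at 1375 ± 177, and PGK1, the first ATP-making kinase of the pathway, at 1166 ± 72.3. These 3 do not differ beyond their spread from their nearest neighbor in that order. In U251 the highest were the pyruvate kinase PKM at 1274 ± 28.1 TPM, the enolase ENO1 at 1224 ± 32.5 and PGK1 at 1127 ± 123. The lowest were PDK3 at 20.3 ± 2.05 TPM in U87, a kinase that shuts off pyruvate dehydrogenase, and the brain aldolase ALDOC at 2.75 ± 1.08 TPM in U251.

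The main lactate dehydrogenase transcript was LDHA in U87 and LDHB in U251. LDHA made up 75.9% ± 2.32 (SD, n = 3) of the summed LDHA and LDHB TPM in Untreated U87 and 17.2% ± 1.91 in Untreated U251, where LDHA stood at 55.3 TPM and LDHB at 266. The inducible hexokinase HK2 made up 38.3% ± 0.652 of HK1 plus HK2 in U87 and 14.6% ± 1.42 in U251. ALDOC was 180 TPM in U87. The lines have separate tables, and their levels were not tested against each other. Several members have processed pseudogenes with rows of their own, 155 rows for 15 of the 35 genes, most of them for GAPDH (65 rows) and BNIP3 (44 rows), and how reads were divided among such copies is not given in the sources used here. The highest such row was a GAPDH copy at 15.4 TPM on average in U251, and of LDHA copies one reached 13.7 TPM in U87, so the levels of these genes carry that uncertainty.

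Promoter windows, 250 bases before to 50 after the transcription start, were taken from RefSeq (GRCh38.p14) for 30 of the 35 genes. Those of SLC2A3, SLC16A1, VEGFA, BNIP3L and NDRG1 were not analysed here. The HIF core ACGTG or GCGTG occurred on either strand in 22 of these 30 windows (73.3%), in 48.4% of 27303 gene promoters of the same length and in 60.1% of the 13297 whose genes were tested in U87. At least 2 matches occurred in 10 of 30 (33.3%) and in 31.6% of the promoters of tested genes, a like share. BNIP3 and LDHA had the most, 6 each, and in the palindrome CACGTG the core is counted once on each strand. Windows of 3 genes are shown, chosen after their values were seen: LDHA, with the largest fold change in U87, and the carbonic anhydrases CA9 and CA12, which moved in opposite directions in U251. Capitals mark the matches on either strand, so that ACGTG also appears as CACGT and GCGTG as CACGC. LDHA lies at chr11:18394313-18394612 on the plus strand, CA9 at chr9:35673678-35673977 on the plus strand and CA12 at chr15:63381797-63382096 on the minus strand, and each is written 5′ to 3′ on the strand of its gene.
LDHA: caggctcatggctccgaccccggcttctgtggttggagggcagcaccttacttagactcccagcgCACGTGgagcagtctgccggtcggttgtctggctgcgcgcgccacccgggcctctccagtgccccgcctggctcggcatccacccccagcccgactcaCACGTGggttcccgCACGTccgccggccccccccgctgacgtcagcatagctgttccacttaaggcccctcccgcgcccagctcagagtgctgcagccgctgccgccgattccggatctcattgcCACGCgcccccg
CA9: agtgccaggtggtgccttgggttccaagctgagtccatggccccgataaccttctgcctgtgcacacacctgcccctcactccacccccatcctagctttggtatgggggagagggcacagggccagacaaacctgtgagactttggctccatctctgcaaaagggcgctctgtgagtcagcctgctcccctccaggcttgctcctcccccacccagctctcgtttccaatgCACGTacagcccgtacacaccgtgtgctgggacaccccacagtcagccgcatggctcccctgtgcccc
CA12: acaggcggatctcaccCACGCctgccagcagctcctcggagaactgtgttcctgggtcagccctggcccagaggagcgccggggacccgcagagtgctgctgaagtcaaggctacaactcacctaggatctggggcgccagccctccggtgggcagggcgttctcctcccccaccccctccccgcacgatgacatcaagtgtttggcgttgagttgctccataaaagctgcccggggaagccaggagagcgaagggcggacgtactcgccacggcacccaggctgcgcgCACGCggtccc

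The single match of CA9 starts 18 bases before the transcription start, the 2 of CA12 start at -234 and 40, and 5 of the 6 of LDHA start between -185 and -73, counted in bases from the start site along the strand of the gene. A match is a string of letters and not a bound site. The windows of HK1, PFKM, PFKP, TPI1, PGAM1, PDK1, SLC16A3 and EGLN3 held no match. A single window was searched per gene, so other start sites of a gene were not covered.

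In U87 at D3, 9 of the 35 genes fell and none rose, where 4.28% of all genes tested were lower and 12.4% higher. The genes that fell span the pathway. The glucose transporter SLC2A1 fell by 0.52 on the log2 scale (SE 0.13), the isomerase GPI by 0.33, TPI1 by 0.30, PGK1 and the mutase PGAM1 by 0.42 each, LDHB by 0.39, the pyruvate dehydrogenase kinase PDK1 by 0.49, the angiogenic factor VEGFA by 0.25 and the HIF prolyl hydroxylase EGLN3 by 0.64 (SE 0.14). Their adjusted p ran from 0.00283 for LDHB to 0.0466 for TPI1 (limma, Benjamini-Hochberg adjustment). The median over the 35 genes was -0.23 against 0.20 over all genes. The count rests on few libraries: it was 1 without D3 replicate 2, where SLC2A1 stood at 125 TPM against 165 in replicate 3, and 5 without Untreated replicate 3. It was 4 in a fit without the libraries labelled D14 and D28WO, 0 in a fit of the compared groups alone and 15 with median-ratio size factors.

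The U87 libraries labelled D14 and D28 gave fewer calls. In the libraries labelled D14, the neuronal-type transporter SLC2A3 rose by 0.30 and PGK1 and EGLN3 fell by 0.36 and 0.65, 3 calls where 4.14% of all genes were higher and 1.02% lower. EGLN3 stood at 26.0 and 26.4 TPM there, at 21.9 and 31.8 TPM at D3 and at 42.1, 41.2 and 41.5 TPM in Untreated. None of the 3 calls remained without D14 replicate 2, D14 replicate 3, Untreated replicate 1 or Untreated replicate 3. At D28, SLC2A3 rose by 0.22, while LDHB, the platelet-type phosphofructokinase PFKP and PGAM1 fell by 0.38, 0.30 and 0.29, 4 calls where 17.2% of genes were higher and 6.55% lower. Without D28 replicate 1 or without D28 replicate 2 there was 1 call, and likewise 1 in a fit of the compared groups alone, while median-ratio size factors gave 0 higher and 9 lower. The median of the members was -0.15 at D14 and -0.11 at D28, against 0.15 and 0.19 over all genes. Between D14 and D3, SLC2A3 and PDK1 were higher at D14 by 0.43 and 0.41, 2 calls where 1.47% of genes were higher and 3.32% lower, and 0 calls remained without D14 replicate 3, 1 without D14 replicate 2 and 1 without D3 replicate 2. Between D28 and D14 limma called 0 of the 35, with 3 at an unadjusted p under 0.05, where 2.94% of genes were higher and 1.12% lower.

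In the U87 libraries labelled D28WO the members fell together. Of the 35 genes 29 fell and 1 rose against Untreated, where 13.4% of all genes were lower and 28.6% higher. The median of the members was -0.58, against 0.25 over all genes. All 9 genes from aldolase to pyruvate kinase fell, as did both fructose 2,6-bisphosphate enzymes and both carbonic anhydrases. In the group of hexokinase to phosphofructokinase 4 of 6 fell, in the lactate and pyruvate group 5 of 6, and among the intracellular hypoxia targets 5 of 6. Other lists moved with this fall. Of the proliferation genes 14 of 15 were lower there. The summed level of the fibroblast markers was 357 ± 38.8 TPM against 569 ± 48.1 in Untreated (SD, n = 3), with 3 of 5 lower and 1 higher. That of the glioma and glial markers was 1897 ± 91.2 against 2240 ± 109 TPM, with 4 of 10 lower and 4 higher. The leukocyte markers summed to 18.3 ± 5.68 against 56.3 ± 6.52 TPM, and the endothelial markers to 7.69 ± 1.97 against 10.7 ± 1.06 TPM. Mitochondrial genes held 0.583% ± 0.00640 of the total against 0.734% ± 0.0283. The part of these in the fall of the members was not tested.

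The members past 2-fold in U87 were LDHA, PFKFB4 and SLC2A1, where 2.12% of all genes were lower past that limit. LDHA (chromosome 11, 18394560 to 18408425, plus strand) stood at 1545, 1192 and 1386 TPM in Untreated, at 956 and 1229 at D3, at 1039 and 1244 at D14 and at 1118, 1263 and 1123 at D28. At D28WO the values were 514, 563 and 665 TPM. The D28WO libraries lay below every other library of the line. LDHA fell by 1.24 on the log2 scale (SE 0.13, limma adjusted p = 1.9e-05). The share of LDHA in the summed LDHA and LDHB was 65.3% ± 3.74 (SD, n = 3) at D28WO against 75.9% ± 2.32 in Untreated, and the groups do not overlap.

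PFKFB4 (chromosome 3, 48517684 to 48562015, minus strand) makes and breaks fructose 2,6-bisphosphate, the strongest activator of phosphofructokinase. It stood at 170, 173 and 176 TPM in Untreated, 117 and 157 at D3, 150 and 158 at D14 and 149, 182 and 168 at D28. Its levels at D28WO were 78.5, 67.2 and 102 TPM. Again the D28WO libraries were the lowest of all, and PFKFB4 fell by 1.08 (SE 0.14, limma adjusted p = 0.000109). Its relative PFKFB3 fell by 0.60.

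SLC2A1 (GLUT1, chromosome 1, 42925353 to 42958893, minus strand) is the main glucose transporter of glioma cells and of the blood-brain barrier. It stood at 199, 197 and 224 TPM in Untreated, 125 and 165 at D3, 165 and 185 at D14 and 182, 198 and 180 at D28. At D28WO the values were 92.7, 93.6 and 114 TPM. It fell by 1.04 (SE 0.11, limma adjusted p = 2.61e-05), with no overlap between D28WO and any other group. SLC2A3, the second transporter, stood at 121 ± 2.70 TPM there and 111 ± 5.96 in Untreated (SD, n = 3) and was not called.

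**Figure D1:**
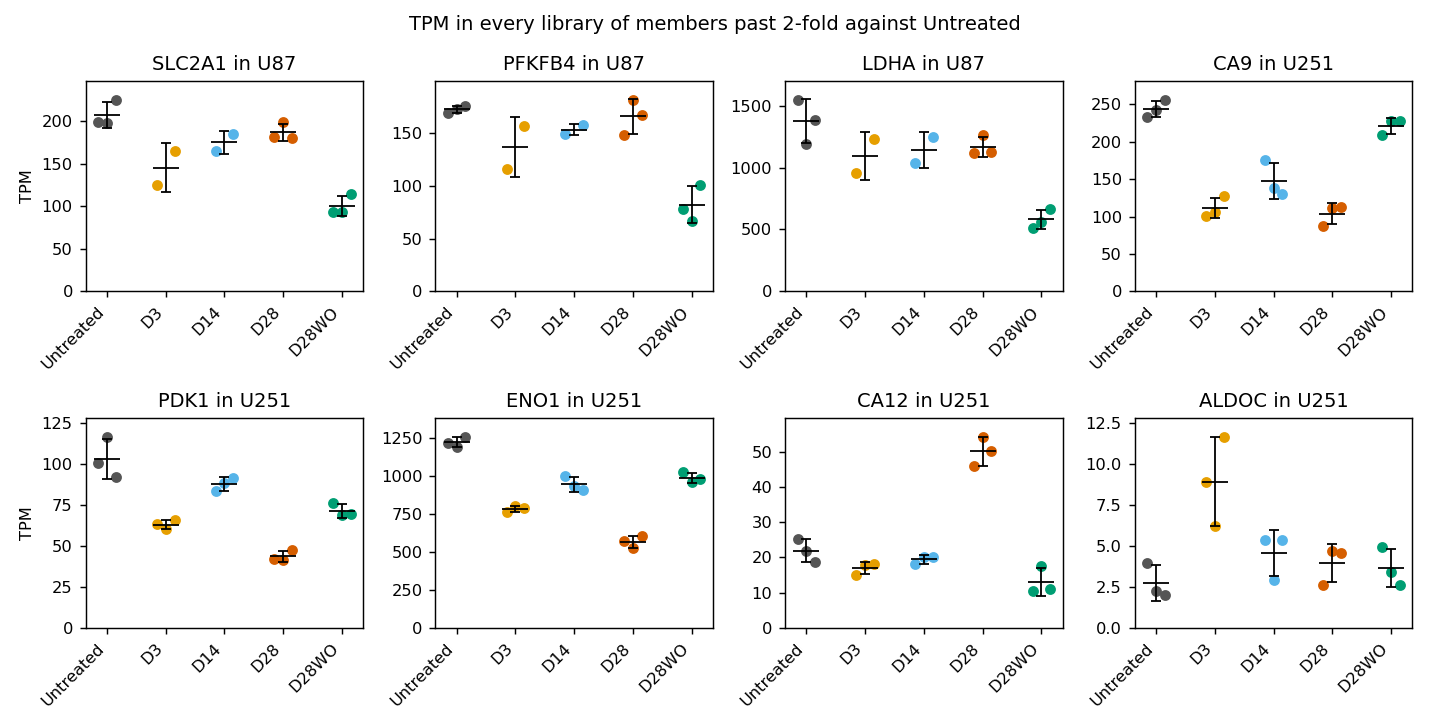
TPM (vertical axis, from 0) in each library of the 8 members past 2-fold against Untreated, for the line in which they passed, by group. Points are libraries, the long bar is the mean and the whiskers are 1 SD over 2 or 3 libraries. LDHA, PFKFB4 and SLC2A1 in U87 sit lowest in the libraries labelled D28WO, CA9 in U251 is low at D3 and D28, and CA12 in U251 is high at D28 alone.

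The other U87 members that fell at D28WO did so by 0.35 to 0.92. From aldolase to pyruvate kinase TPI1 fell by 0.92, ALDOC by 0.91, PGAM1 by 0.89, GAPDH by 0.84, PGK1 by 0.76, ENO2 by 0.65, PKM by 0.64, ALDOA by 0.58 and ENO1 by 0.55. Upstream, GPI fell by 0.85, PFKP by 0.57, HK1 by 0.42 and the liver-type PFKL by 0.35. HK2 went the other way and rose by 0.19 (SE 0.06, limma adjusted p = 0.0356), but its difference was -0.05 with median-ratio size factors, and the call was lost without Untreated replicate 1 or 2 or D28WO replicate 1 or 2, at 0.16 to 0.18. HK2 made up 48.7% ± 1.76 of the summed HK1 and HK2 at D28WO, against 38.3% ± 0.652 in Untreated (SD, n = 3, no overlap), and as a ratio within a library this share does not depend on the scaling. The summed level of 17 glycolytic enzymes, from the hexokinases to PKM, with LDHA and LDHB included, was 6324 ± 412 TPM against 10566 ± 720.

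Around pyruvate, PDK1 and PDK3, which divert it from the mitochondria, fell by 0.72 and 0.74, LDHB by 0.50, and the lactate exporter SLC16A3 (MCT4) by 0.56. The transporter SLC16A1 (MCT1) stood at 110 ± 3.81 TPM against 112 ± 9.09 in Untreated (SD, n = 3) and was not called. CA9 and CA12, membrane enzymes that handle the acid made by glycolysis, fell by 0.77 and 0.35. The vasoactive peptide ADM fell by 0.51, and VEGFA at 376 ± 2.35 TPM against 428 ± 43.5 was not called. The mitophagy receptors BNIP3 and BNIP3L fell by 0.59 and 0.48, the stress-responsive NDRG1 by 0.63, the collagen prolyl hydroxylase P4HA1 by 0.36 and EGLN3 by 0.37, and the EGLN3 call was lost in 5 of the 6 fits that left out 1 library (without Untreated replicate 1, 2 or 3 or without D28WO replicate 2 or 3), with a difference of -0.39 to -0.30. ANKRD37 and PFKM were not called.

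Set against D28, the U87 libraries labelled D28WO were lower in 24 of the 35 genes and higher in 0, where 8.44% of all genes were lower and 9.9% higher. LDHA and PFKFB4 were the genes past 2-fold, a limit that 2.42% of all genes passed downward. Their log2 fold changes were -1.01 and -1.02 (SE 0.13 and 0.14, limma adjusted p = 0.000414 and 0.000731). The median of the members was -0.53 against 0.04 over all genes. The 11 genes not called included the hypoxia targets VEGFA and NDRG1, the phosphofructokinase PFKP and the transporters SLC2A3 and SLC16A1. The 16 interferon genes tested gave 0 calls with limma in this comparison, 0 of them at an unadjusted p under 0.05, whereas 10 of the 15 proliferation genes were lower. Against D28 the fibroblast markers had 3 of 5 lower (a sum of 625 ± 29.6 TPM at D28 against 357 ± 38.8 at D28WO) and the glioma and glial markers 4 of 10 lower and 1 higher. The leukocyte sum was 50.6 ± 9.52 TPM at D28 against 18.3 ± 5.68, and the mitochondrial share 0.699% ± 0.195 against 0.583% ± 0.00640 (SD, n = 3). The part of these lists was not tested.

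**Figure D2:**
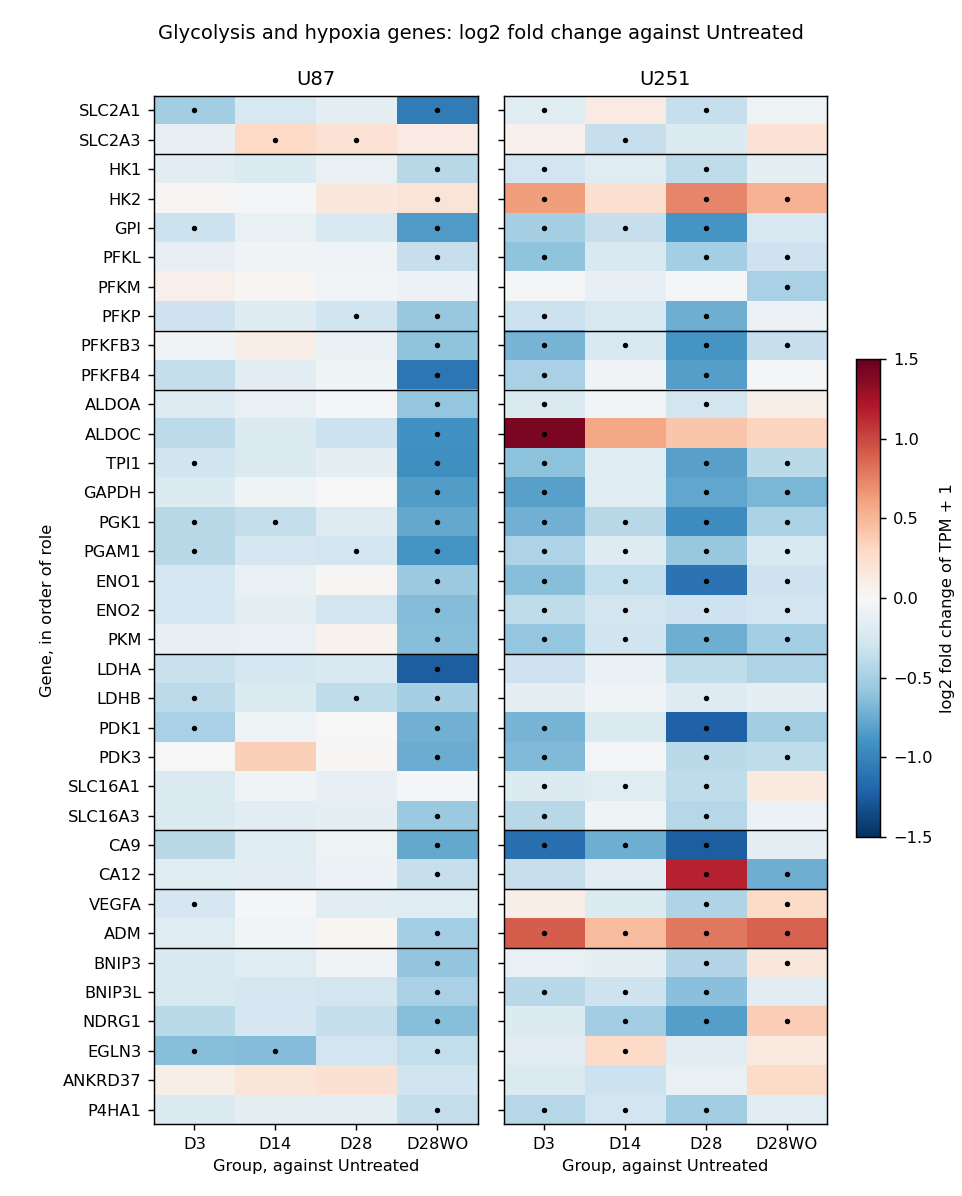
Log2 fold change of TPM + 1 against Untreated for the 35 genes (rows, in order of role) in the 4 groups labelled D3, D14, D28 and D28WO (columns), with U87 at the left and U251 at the right. Blue is lower, red is higher, and a dot marks a limma adjusted p under 0.05. In U87 the D28WO column is dotted for 30 genes, and in U251 the D3 and D28 columns are dotted for 25 and 29.

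In U251 most members were lower at D3 and at D28. At D3, 22 of the 35 genes fell and 3 rose, where 16% of all genes tested were lower and 24.9% higher. The median of the members was -0.35 against 0.13 over all genes. At D28, 26 fell and 3 rose, where 14.7% of genes were lower and 25.9% higher, with a median of -0.45 for the members and 0.16 over all genes. In the libraries labelled D14, 13 fell and 2 rose, where 7.31% were lower and 13.8% higher, with medians of -0.19 and 0.10. Under quantile normalization this D14 split became 7 lower and 3 higher, and 9 genes were called in a fit of these groups alone. Without the libraries labelled D14 and D28WO, 23 genes were called at D3 and 29 at D28.

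Marker lists of U251 moved in the same libraries. The glioma and glial markers summed to 4215 ± 40.4 TPM in Untreated, 1888 ± 177 at D3 and 2033 ± 124 at D28 (SD, n = 3), with 9 and 8 of the 10 tested genes lower and 0 and 1 higher. The fibroblast markers summed to 339 ± 10.1, 131 ± 12.4 and 176 ± 14.7 TPM, with 2 of 3 tested lower at both points. The endothelial markers summed to 42.0 ± 7.39, 14.3 ± 0.852 and 22.1 ± 0.924 TPM, and the leukocyte markers to 3.95 ± 1.15, 9.25 ± 1.95 and 8.87 ± 1.52 TPM. In the libraries labelled D14 the glioma and glial sum was 3138 ± 207 TPM, with 7 of 10 lower and 0 higher, and 11 of 15 proliferation genes were higher. Their part in the fall of the members was not tested.

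CA9 (chromosome 9, 35673928 to 35681159, plus strand), the membrane carbonic anhydrase that serves as a clinical marker of hypoxia, had the lowest log2 fold change against Untreated in U251, close to that of PDK1. It stood at 233, 243 and 256 TPM in Untreated, 101, 106 and 127 at D3, 175, 138 and 130 at D14 and 87.4, 112 and 112 at D28. Its levels at D28WO were 209, 227 and 227 TPM. The D3, D14 and D28 libraries all lay below every Untreated library. CA9 fell by 1.13 at D3 (SE 0.12, limma adjusted p = 4.86e-06), where 4.55% of all genes were lower past 2-fold, by 0.73 at D14 and by 1.23 at D28 (SE 0.12, limma adjusted p = 1.98e-06). At D28WO it was not called against Untreated and was higher than at D28 by 1.09 (SE 0.12, limma adjusted p = 1.54e-05), where 1.12% of all genes were higher past 2-fold.

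CA12 (chromosome 15, 63321378 to 63381846, minus strand), a second membrane carbonic anhydrase, moved the opposite way at D28. It stood at 25.3, 21.9 and 18.7 TPM in Untreated, 15.1, 17.8 and 18.0 at D3, 18.1, 20.2 and 20.2 at D14 and 45.9, 54.2 and 50.1 at D28. At D28WO the values were 10.5, 17.7 and 11.1 TPM. Every D28 library lay above every other library, and every D28WO library below every Untreated library. CA12 rose by 1.16 at D28 (SE 0.17, limma adjusted p = 8.48e-05), where 11.9% of all genes were higher past 2-fold, and fell by 0.73 at D28WO (limma adjusted p = 0.00481), a call lost in a fit of these groups alone.

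PDK1 (chromosome 2, 172555373 to 172608669, plus strand), a kinase that closes the entry of pyruvate into the citric acid cycle, stood at 101, 117 and 92.4 TPM in Untreated, 63.6, 60.3 and 65.7 at D3, 83.6, 88.8 and 91.6 at D14 and 42.2, 41.6 and 47.5 at D28. Its levels at D28WO were 76.6, 68.7 and 69.4 TPM. The D28 libraries were the lowest of the line, those at D3 came next, and the D14 libraries lay just below Untreated. PDK1 fell by 0.69 at D3, by 1.22 at D28 (SE 0.09, limma adjusted p = 8.55e-08) and by 0.52 at D28WO. At D14 it was not called.

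ENO1 (chromosome 1, 8861000 to 8879190, minus strand), the ubiquitous enolase, stood at 1219, 1194 and 1259 TPM in Untreated, 765, 802 and 789 at D3, 1003, 933 and 907 at D14 and 571, 526 and 605 at D28. At D28WO the values were 1027, 959 and 981 TPM. All libraries of the other groups lay below Untreated, and those of D28 lowest. ENO1 fell by 1.11 at D28 (SE 0.05, limma adjusted p = 2e-09), where 3.35% of all genes were lower past 2-fold, and by 0.64 at D3. The neuronal enolase ENO2 fell by 0.31 at D28, so that ENO1 made up 72.9% ± 1.56 of both enolases there against 82.4% ± 1.27 in Untreated (SD, n = 3, no overlap).

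ALDOC (chromosome 17, 28573115 to 28576948, minus strand) rose at D3 by 1.41 (SE 0.30, limma adjusted p = 0.00209) from a low level, where 9.72% of all genes were higher past 2-fold. It stood at 3.98, 2.26 and 2.01 TPM in Untreated and at 8.92, 6.25 and 11.7 at D3, without overlap. In the other groups it ran from 2.64 to 5.40 TPM and was not called. ALDOA, the main aldolase, fell by 0.22 at D3 and by 0.27 at D28, from 513 ± 11.7 TPM in Untreated (SD, n = 3), and the D3 call was lost without Untreated replicate 1, 2 or 3, or without D3 replicate 1 or 3, at -0.23 to -0.13, and the D28 call without D28 replicate 1, at -0.21.

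Genes that rose in U251 were few. HK2 stood at 28.8, 28.0 and 25.4 TPM in Untreated, 44.5, 39.6 and 45.2 at D3, 33.6, 33.4 and 30.6 at D14 and 48.9, 46.9 and 42.4 at D28. Its levels at D28WO were 38.5, 40.5 and 40.0 TPM. It rose by 0.63 at D3, 0.73 at D28 and 0.52 at D28WO, while HK1 fell by 0.29 and 0.38 at D3 and D28, and HK2 made up 27.3% ± 2.13 of both hexokinases at D28 against 14.6% ± 1.42 in Untreated. ADM, the peptide adrenomedullin, rose against Untreated in all 4 groups, by 0.90 at D3, 0.48 at D14 and 0.79 at D28 and by 0.89 in the libraries labelled D28WO, from 95.2 ± 4.14 TPM in Untreated to 179 ± 17.1 at D3 (SD, n = 3). EGLN3 rose by 0.28 in the libraries labelled D14.

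The remaining U251 members at D28 fell by 0.19 to 0.94. Upstream of aldolase SLC2A1 fell by 0.35, GPI by 0.88, PFKL by 0.52, PFKP by 0.74, PFKFB3 by 0.89 and PFKFB4 by 0.82. Downstream PGK1 fell by 0.94, TPI1 by 0.82, GAPDH by 0.78, PKM by 0.73 and PGAM1 by 0.57. Both monocarboxylate transporters fell, SLC16A1 by 0.38 and SLC16A3 by 0.43, as did PDK3 by 0.41 and LDHB by 0.19, the last a call lost without Untreated replicate 3 or any one of the D28 libraries (-0.21 to -0.15). LDHA stood at 42.3 ± 6.63 TPM against 55.3 ± 5.48 in Untreated (SD, n = 3) and was not called. Of the hypoxia targets NDRG1 fell by 0.83, BNIP3L by 0.62, P4HA1 by 0.52, BNIP3 and VEGFA by 0.45 each. PFKM, SLC2A3, EGLN3, ANKRD37 and ALDOC were not called. The 17 enzymes summed to 7848 ± 67.5 TPM in Untreated cells (SD, n = 3). The sums were 5384 ± 381 TPM at D3, 6567 ± 262 TPM at D14, 4789 ± 300 TPM at D28, and 6113 ± 132 TPM in the libraries labelled D28WO.

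Successive time points of U251 were also compared. Against D3, 15 genes were higher and 5 lower at D14, where 12.8% of all genes were higher and 12.6% lower. PDK3 and GAPDH were higher by 0.64 each, PFKFB3 and PDK1 by 0.47 each. CA9 was higher by 0.40, a call lost without D3 replicate 1 or 2 or D14 replicate 1 (0.27 to 0.37), whereas ADM, SLC2A3 and HK2 were lower, with log2 fold changes of -0.43, -0.40 and -0.39. At D28 against D14, 23 genes were lower and 3 higher, where 9.48% were lower and 11.3% higher. PDK1 was lower there (-0.99), as were PFKFB4 (-0.77) and ENO1 (-0.74), and CA12, HK2 and ADM were higher by 1.32, 0.49 and 0.31. Past 2-fold stood CA12, where 4.23% of all genes were higher past that limit. Of the 16 interferon genes tested, 16 were lower at D14 than at D3 and 15 were higher at D28 than at D14. Of the 15 proliferation genes, 14 were higher at D14 than at D3 and 10 were lower at D28 than at D14. Of the 10 glioma and glial markers 7 were higher and 0 lower at D14 than at D3, and 7 were lower and 1 higher at D28 than at D14. Of 3 fibroblast markers 2 were higher in the first step and 1 lower in the second. Their part was not tested.

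In the U251 libraries labelled D28WO, 13 of the 35 genes were lower and 5 higher than in Untreated, where 13.4% of all genes were lower and 14.3% higher. GAPDH fell by 0.69, PKM by 0.51, PGK1 and the muscle-type phosphofructokinase PFKM by 0.48 each, and TPI1 by 0.40. ADM, HK2, NDRG1, VEGFA and BNIP3 were higher, NDRG1 by 0.37 and VEGFA by 0.28. The calls of NDRG1 and BNIP3 were lost with median-ratio size factors. The NDRG1 call was also lost without Untreated replicate 1 (0.29) or D28WO replicate 1 (0.33), the VEGFA call without Untreated replicate 2 (0.24), and the BNIP3 call without Untreated replicate 1 or 2 or D28WO replicate 1 or 2 (0.15 to 0.17). The median of the members was -0.15, against 0.02 over all genes. In the same contrast 11 of 15 proliferation genes were lower, as were 8 of 10 glioma and glial markers, whose sum was 2453 ± 41.1 TPM against 4215 ± 40.4 (SD, n = 3). The fibroblast sum was 235 ± 22.1 against 339 ± 10.1 TPM and the endothelial sum 13.7 ± 2.58 against 42.0 ± 7.39. Their part was not tested.

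Against D28 the same libraries were higher in 23 of the 35 genes and lower in 2, where 10.3% of all genes were higher and 18.8% lower, with medians of 0.36 and -0.12. Both glucose transporters, both fructose 2,6-bisphosphate enzymes and all 6 intracellular hypoxia targets were higher. NDRG1 stood at 426, 369 and 460 TPM at D28, below the 660, 729 and 841 TPM of Untreated. At D28WO it stood at 1008, 898 and 962 TPM, above every Untreated library. It was higher at D28WO than at D28 by 1.19 (SE 0.10, limma adjusted p = 1.85e-06). ENO1 and PFKFB4 were higher by 0.80 each, VEGFA by 0.74, PDK1 by 0.70, PFKP by 0.65 and GPI by 0.64. CA12 was lower (-1.89, SE 0.17, limma adjusted p = 2.57e-06), where 8.14% of all genes were lower past 2-fold, as was PFKM (-0.47). Of the proliferation genes 12 of 15 were lower at D28WO than at D28, and of the interferon genes 4 were higher and 5 lower. Of the glioma and glial markers 4 of 10 were higher and 2 lower, with a sum of 2453 ± 41.1 TPM at D28WO against 2033 ± 124 at D28 (SD, n = 3). The fibroblast sum was 235 ± 22.1 against 176 ± 14.7 TPM and the endothelial sum 13.7 ± 2.58 against 22.1 ± 0.924. The part of these lists in the difference was not tested.

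**Figure D3:**
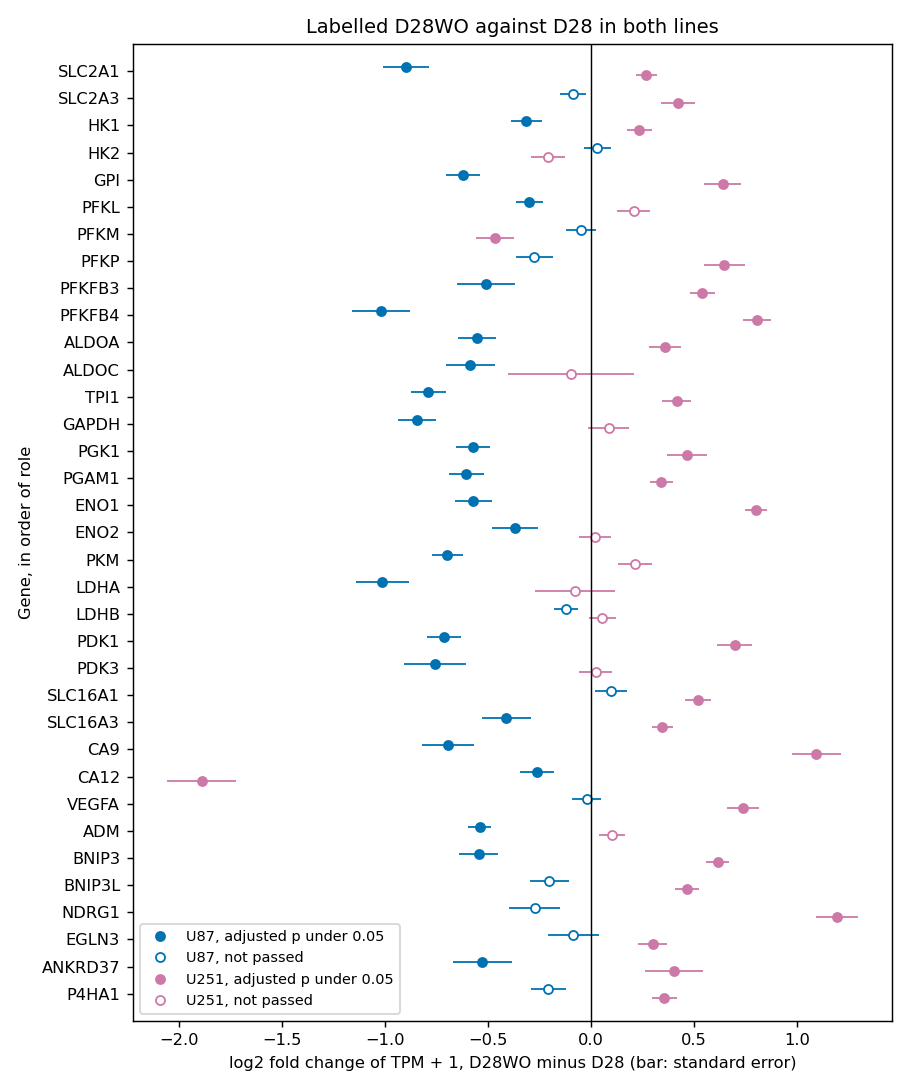
Log2 fold change of TPM + 1 of the libraries labelled D28WO against D28 (horizontal axis) for the 35 genes in order of role, with bars of 1 standard error, in U87 and U251. Filled points passed a limma adjusted p under 0.05. Most U87 points lie left of 0 and most U251 points right of it, with 5 U251 points left of 0, of which CA12 (-1.89) and PFKM (-0.47) passed, and the lines were fitted separately and not tested against each other.

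The lines thus gave counts of opposite direction in the contrast of D28WO with D28. In U87 24 members were lower and 0 higher, where 8.44% of all genes were lower and 9.9% higher. In U251 23 were higher and 2 lower, where 10.3% of all genes were higher and 18.8% lower. The difference between lines was not tested. The contrasts of D28 with Untreated and of D28WO with D28 share the D28 libraries of a line.

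**Figure D4:**
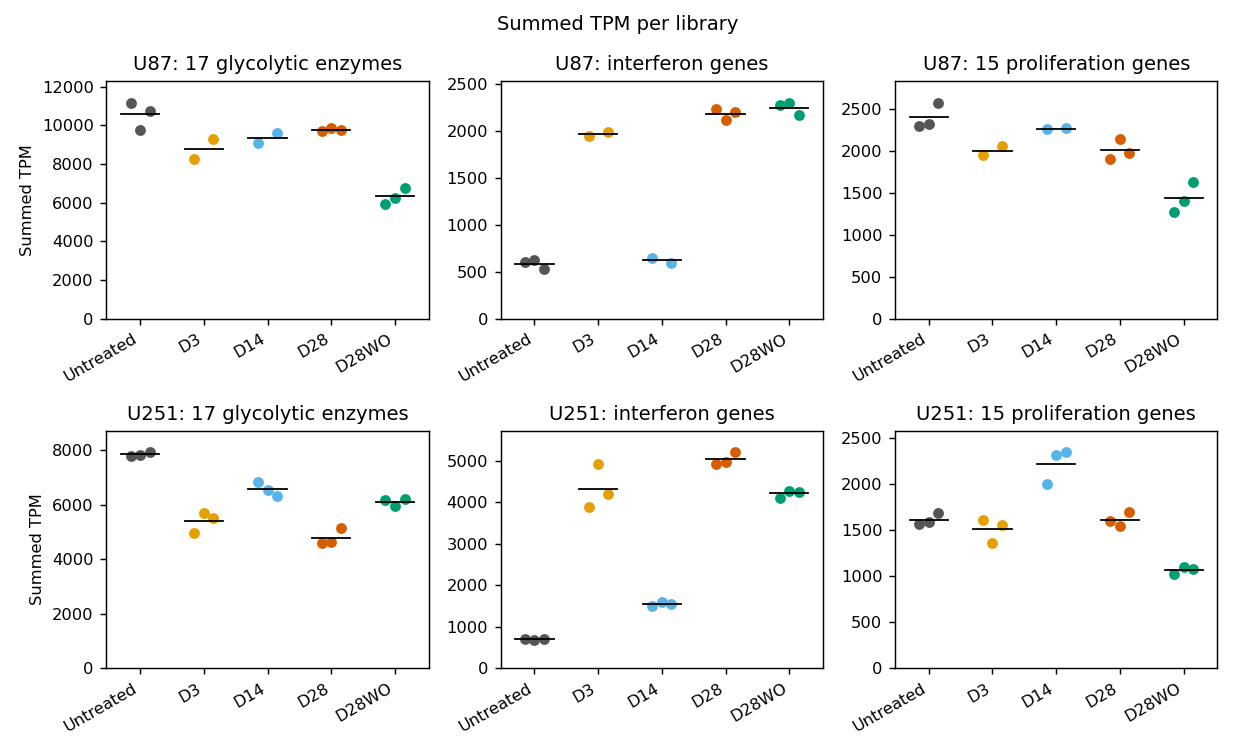
Summed TPM per library (vertical axes, from 0) of 17 glycolytic enzymes, 17 interferon genes and 15 proliferation genes, by group, in U87 (top) and U251 (bottom). Points are libraries and bars are group means. The enzyme sum of U87 is lowest at D28WO (6324 TPM on average), that of U251 at D28 (4789 TPM), and the interferon sum of U87 is near the Untreated level at D14.

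Other genes of the same pathways, from lists that do not overlap with the 35, were examined in the same fits. Among the HIF subunits and regulators, HIF1A was at 236 ± 38.1 TPM in Untreated U87 and 214 TPM at D28WO, and HIF1A, EPAS1 and ARNT passed no comparison with Untreated in that line. Of the 14 genes of this list in U87, 6 rose and 2 fell at D28WO, where 28.6% of all genes were higher and 13.4% lower, and 2 rose and none fell at D28, where 17.2% were higher and 6.55% lower. In U251 at D28, 8 of the 13 such genes tested fell and none rose, where 14.7% of all genes were lower and 25.9% higher. There HIF1A fell by 0.42, EPAS1 by 0.57 and ARNT by 0.32, and EPAS1 also fell by 0.24 at D3 and by 0.41 at D14. At D28WO against D28, EPAS1 and ARNT were higher by 0.47 and 0.40, and 6 of the 13 genes were higher and none lower, where 10.3% of all genes were higher and 18.8% lower. HIF activity is set largely by the stability of the protein, which was not measured here.

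Of 29 other hypoxia-responsive genes, 20 fell and 4 rose in the U87 libraries labelled D28WO against Untreated, where 13.4% of all genes were lower and 28.6% higher. In U251 at D28, 19 fell and 6 rose, where 14.7% were lower and 25.9% higher. ANGPTL4, a secreted inhibitor of lipoprotein lipase, fell by 2.44 in U87 at D28WO (139 to 26.7 TPM on average) and rose by 3.83 in U251 at D28 (1.54 to 34.9 TPM). The secreted peptide APLN fell by 2.42 in U87 at D28WO, from 82.0 to 15.9 TPM. In U251, PPFIA4 fell by 1.75 at D28, and the glycoprotein hormone STC2 rose by 1.52 at D28WO. At D28WO against D28 the same list gave 18 lower and 2 higher in U87, where 8.44% of all genes were lower and 9.9% higher. In U251 it gave 17 higher and 5 lower, where 10.3% were higher and 18.8% lower.

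Of 36 other glycolytic and pyruvate genes, 29 were tested in U87 and 28 in U251. In U87 at D28WO 9 rose and 7 fell, where 28.6% of all genes were higher and 13.4% lower, and in U251 at D28 6 rose and 9 fell, where 25.9% were higher and 14.7% lower. This list was not tested against the 35. PCK2, the mitochondrial enzyme that turns oxaloacetate into phosphoenolpyruvate, rose in both lines, by 1.15 at D28 and by 2.16 at D28WO in U87, where its mean went from 32.6 to 149 TPM, and by 2.36 at D28WO in U251, from 38.8 to 203 TPM. The monocarboxylate transporter gene SLC16A4 rose by 1.57 in U87 at D28 and fell by 1.17 in U251 at D28WO. The muscle enolase ENO3 rose by 1.28 in U87 at D28, and PDK4, a starvation-induced pyruvate dehydrogenase kinase, rose by 1.88 in U251 at D28 from 1.64 to 8.63 TPM. Of the 7 pentose phosphate genes 2 fell in U87 at D28WO and 2 in U251 at D28, and none rose.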

How the data were processed

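The 28 libraries were taken from 1 table per line, U87 and U251, of TPM values that the authors deposited. Per the labels and the study's methods, reads were trimmed with Trim Galore, aligned to GRCh38 with STAR and counted with featureCounts, and the authors used edgeR to filter and scale the counts and limma with voom for their own tests. How TPM was computed is not given in the sources used here. A supplementary sheet calls the matrices CPM. They were used as TPM. A pair of columns of the U87 values share 1 name, so that neither could be given a sample, and these 2 columns were left out, which leaves 2 libraries at D3 and 2 at D14. The methods set a floor on reads per sample, but the depth each sample reached cannot be read from TPM and no interval that needs it is given.

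Genes whose mean over the libraries of a line reached 0.5 TPM were tested as log2(TPM + 1) with limma 3.58.1 in R 4.3.3 (lmFit, eBayes with a trend), 5 groups in 1 fit per line and 7 comparisons, with Benjamini-Hochberg adjustment over all genes tested. The 2-fold limit is an absolute log2 fold change over 1. Fold changes on this scale understate the change of low genes. P-values measure the spread between cultures. The procedure was also run on simulated data, with the outcome not given here. The members and the gene lists were chosen with earlier results of these data known. One gene of the interferon list is not reported here and was left out of that list's sums and counts. All 35 members are named, those past both limits against Untreated with every library. Of the other pathway genes HIF1A, EPAS1 and ARNT are named, and in each line the 3 largest changes past both limits at D28 and at D28WO.

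Alternatives were quantile normalization, median-ratio size factors, a pseudocount of 0.1, no filter, a filter at 1 TPM, a fit of the compared groups alone, array weights, the replicate number as a block, a fit without the libraries labelled D14 and D28WO, and leaving out each library. Coordinates are from GENCODE release 44 and promoters from RefSeq (GRCh38.p14).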

Additional observations from a re-analysis of the deposited data

Results flagged for a closer look

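Differences between time points of 1 line, tested in the fit itself, were past both limits for 6 pairs. In U87 the libraries labelled D28WO differed from D28 by -1.02 for PFKFB4 and -1.01 for LDHA on the log2 scale. In U251 CA12 differed by 1.32 between D28 and D14, and D28WO differed from D28 by 1.09 for CA9, -1.89 for CA12 and 1.19 for NDRG1.

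For several members the libraries of a group lay wholly above Untreated in U87 or U251 and wholly below it in the other line. How many of all genes tested did so was not counted, and groups of 2 or 3 libraries separate easily. The cases are therefore listed without a claim about the members, and the difference between lines was not tested. At D3 the log2 fold change was -0.39 in U87 and 1.41 in U251 for ALDOC, and -0.18 and 0.90 for ADM. In the libraries labelled D14 it was -0.24 and 0.12 for SLC2A1, 0.30 and -0.35 for SLC2A3, and -0.65 and 0.28 for EGLN3. In those labelled D28WO it was -0.58 and 0.085 for ALDOA, -0.18 and 0.28 for VEGFA, -0.51 and 0.89 for ADM, -0.59 and 0.17 for BNIP3, -0.63 and 0.37 for NDRG1, and -0.37 and 0.15 for EGLN3. Some of these values did not pass the adjusted limit in their own line. Groups of 2 or 3 libraries are too small for a check of single outlying libraries.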

How the results depend on the processing

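Against Untreated, 9, 3, 4 and 30 members were called in U87 at D3, D14, D28 and D28WO, then 2, 0 and 24 for D14 against D3, D28 against D14 and D28WO against D28, and in U251 25, 15, 29, 18, 20, 26 and 25 in that order. U87 at D3 gave 2 with quantile normalization, 15 with median-ratio size factors, 0 in a fit of the compared groups alone and 4 without the libraries labelled D14 and D28WO. U87 at D14 gave 1 with median-ratio size factors and 0 with the compared groups alone. U87 at D28 gave 9 with median-ratio size factors, 2 with no filter, 1 with the compared groups alone, 2 with array weights and 2 without the libraries labelled D14 and D28WO. U87 D14 against D3 gave 1 with median-ratio size factors, 1 with no filter and 0 with the compared groups alone, and D28 against D14 gave 1 with quantile normalization. U251 at D14 gave 9 with the compared groups alone. The causes were not tested. Leaving out 1 library gave 1 to 12, 0 to 3, 1 to 6 and 28 to 30 calls in U87 at D3, D14, D28 and D28WO, and 0 to 2, 0 and 19 to 23 in its later comparisons. In U251 it gave 22 to 25, 10 to 15, 27 to 29 and 16 to 20, then 16 to 20, 21 to 27 and 24 to 26. In U87 such fits can leave 1 library at D3 or D14, which is then assumed to vary like the others.

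The median of all genes was 0.20, 0.15, 0.19 and 0.25 in U87 and 0.13, 0.10, 0.16 and 0.02 in U251 against Untreated, and with median-ratio size factors it was 0.04, 0.00, 0.03 and 0.06 in U87, so levels relative to most genes lie lower than the fold changes given. With those size factors HK2 in U87 at D28WO reversed to -0.0486, and with quantile normalization PKM in U251 at D14 reversed to 0.0143. The split of U87 at D28 was 1 higher and 3 lower, against 0 and 9 with median-ratio size factors and 2 and 2 with quantile normalization. The split of U87 at D14 was 1 higher and 2 lower, against 0 and 1 and against 1 and 1. Of 230 single calls, 218 held with median-ratio size factors, 199 with quantile normalization and 190 with the compared groups alone.

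The cultures were split at day 14 into D28 and D28WO, and the methods do not say whether replicate numbers follow that split. The main fits took all libraries as unpaired. No correlation of deviations between same-numbered libraries was over 0.1 (the highest was 0.0472 in U87 and 0.0480 in U251). With so few libraries per group this check cannot exclude pairing. With the replicate number as a block, U87 at D14 gave 1 call, U87 at D28 gave 8 and U87 D14 against D3 gave 1, and of 230 single calls 220 held and 10 did not pass. The depth each library reached is unknown, and 2 libraries at D3 and D14 in U87 limit what those comparisons can show.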
